A study of Homo sapiens with 48 samples.

Results

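The 9 genes described here are 7 metallothioneins (MT2A, MT1X, MT1E, MT1F, MT1M, MT1G and MT1A) and 2 zinc transporters (SLC39A14 and SLC30A1), chosen by name from the 29744 genes of the deposited table. All 9 had a row. They were followed in IL11mNG fibroblasts, an immortalized human skin fibroblast line (CRL-4001) that carries mNeonGreen at IL11 and was grown from a single-cell clone. In the CRISPRko arm every library came from Cas9 cells, with a non-targeting guide (H47_Ctrl) or a GLIS3 guide (H47_KO). In the CRISPRa arm every library came from cells with VP64-coupled dead Cas9, with a non-targeting or a GLIS3 guide, and these groups are called VP64_Ctrl and VP64_A after their sample descriptions. Guides were delivered by lentivirus and cells were kept as drug-selected bulk populations, so a knockout library averages over cells with different edits. TGFβ and IL-1β, each at 10 ng per ml, were present for 6, 12 or 24 h or absent (0 h), and each of the 16 conditions has 3 libraries, 48 in all. The study's reporting notes say that its in vitro experiments used independent biological replicates, but the labels do not tie these libraries to separate cultures, so p-values measure the spread between libraries, which may be technical.

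Metallothioneins are short, cysteine-rich proteins that bind zinc and copper in the cytosol and buffer their free level. Their genes are transcribed when the zinc-sensing factor MTF1 binds metal response elements before the start site, and inflammatory cytokines and glucocorticoids also raise several of them. SLC39A14 encodes ZIP14, an importer of zinc, iron and manganese at the cell surface that is known as an inflammation-responsive transporter in liver. SLC30A1 encodes ZnT1, the exporter that moves zinc out across the plasma membrane and is itself a classic MTF1 target.

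The titles and the descriptions of the CRISPRa libraries name opposite groups as the control: libraries described as VP64_A are titled as controls. GLIS3, the targeted gene, lay at 1.45 to 6.47 normalized CPM (counts scaled to a common library size corrected by TMM factors) in H47_Ctrl and at 0.144 to 1.63 in H47_KO. In libraries described as VP64_A it lay at 16.6 to 36.7 normalized CPM, against 1.91 to 6.31 in those described as VP64_Ctrl, so its level goes with the descriptions and against the titles. Every direction given below for the CRISPRa arm rests on the descriptions. All 10 fibroblast markers fixed for the check exceeded 10 counts in at least 1 library, and they summed to 11383 to 32132 TPM (a level per transcript length) in each library. VIM alone lay at 8823 to 23817 TPM. Of 19 markers of other cell types, the epithelial keratin KRT14 reached 78.9 TPM and CD68, a lysosomal protein that macrophages also carry, lay at 13.6 to 69.6 TPM. The leukocyte marker PTPRC reached at most 17 counts in a library and the endothelial marker VWF 10. The endothelial and melanocyte lists stayed under 1 TPM in sum. Their part in the results was not tested.

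The 7 metallothionein members lie side by side on chromosome 16, between positions 56608584 and 56684196 of GRCh38 (75613 bases, GENCODE 44). From the start of the interval the order is MT2A, MT1E, MT1M, MT1A, MT1F, MT1G and MT1X, with 7 other metallothionein genes or pseudogenes between them, and all but MT1G are on the plus strand. Their canonical transcripts are 396 to 746 bases long, with 3 exons, or 2 in MT1E. SLC30A1 spans positions 211571568 to 211579161 on the minus strand of chromosome 1 with 2 exons, and SLC39A14 spans 22367278 to 22434129 on the plus strand of chromosome 8 with 9 exons.

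Near-identical copies limit how the reads of these genes can be told apart. Of all 31-base words in the canonical transcript, 54% in MT1X, 40.5% in MT1M, 31.5% in MT2A, 31.1% in MT1G, 22.6% in MT1E, 18.9% in MT1A and 13.9% in MT1F also occur in a transcript of another gene. MT2A shares words with the pseudogene MT2P1 (15.9%) and with MT1X (13.5%), and MT1M shares 29.1% with the pseudogene MT1JP. No such word is shared by SLC39A14 or SLC30A1. Salmon splits shared reads by estimate, and 97.9% of the deposited MT2A counts and 100% of the MT1X counts were not whole numbers, with a median distance of 0.149 and 0.142 counts from a whole number. Counts of the single MT1 genes are therefore uncertain where a copy is expressed. The counting strand is not given in the sources used here, so antisense reads could not be separated.

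Upstream sequence is shown for the 3 members listed in the RefSeq promoter table (GRCh38.p14), because MT2A and MT1X were among the genes that moved together and the MTF1 element is the best-known feature of their promoters. Each run holds the 250 bases before the annotated start, 5′ to 3′ on the strand of the gene. Capitals mark matches, on either strand, to the core of the metal response element, searched as TGCACNC and TGCGCNC. None of the marked matches overlap each other.
MT2A (chr16:56608334-56608583, plus strand): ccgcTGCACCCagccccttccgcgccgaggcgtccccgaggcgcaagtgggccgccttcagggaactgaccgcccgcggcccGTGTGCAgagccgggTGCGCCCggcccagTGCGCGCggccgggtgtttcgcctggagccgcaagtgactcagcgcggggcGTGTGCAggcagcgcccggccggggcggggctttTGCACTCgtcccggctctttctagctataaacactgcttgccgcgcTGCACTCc
MT1X (chr16:56682220-56682469, plus strand): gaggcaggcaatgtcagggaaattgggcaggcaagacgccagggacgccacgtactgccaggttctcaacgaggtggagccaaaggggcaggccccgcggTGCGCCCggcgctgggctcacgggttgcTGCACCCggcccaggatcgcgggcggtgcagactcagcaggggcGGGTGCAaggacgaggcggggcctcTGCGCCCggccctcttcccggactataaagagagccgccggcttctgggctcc
SLC30A1 (chr1:211579162-211579411, minus strand): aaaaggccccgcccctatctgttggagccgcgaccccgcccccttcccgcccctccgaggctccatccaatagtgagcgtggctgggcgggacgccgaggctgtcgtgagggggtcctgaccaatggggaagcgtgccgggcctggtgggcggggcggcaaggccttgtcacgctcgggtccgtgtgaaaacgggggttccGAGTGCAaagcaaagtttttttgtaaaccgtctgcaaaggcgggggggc
MT2A holds 7 matches, and 0.0313% of the 35116 promoters of the table hold as many or more. MT1X holds 4 matches (0.37% of promoters have at least as many) and SLC30A1 holds 1 match, when 24.8% of promoters hold at least that many. In MT2A the matches nearest the start begin at positions -54 and -8. In MT1X they begin at -78 and -53. A match describes the letters and is no evidence of a bound site.

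MT2A, the most widely expressed human metallothionein, was abundant before treatment and became the most abundant RNA of the cells within hours of cytokine addition. Over all 12 untreated libraries it lay at 6166, 8456 and 15591 TPM (lowest, median and highest), and ranked between 8 and 19 among all genes. At 6 h it lay at 25349.6, 34663 and 42893 TPM, at 12 h at 37279.8, 46992 and 51894, and at 24 h at 24906, 45001 and 53271. No treated library overlapped an untreated library at any time. How many of all genes separate in this way was not counted, here or for the members below, so such separation is only a description. MT2A ranked 1 in all 12 libraries at 12 h, between 1 and 3 at 6 h and between 1 and 2 at 24 h.

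By group, the 3 untreated H47_Ctrl libraries held 8459, 8452 and 8535 TPM of MT2A, followed by 25349.6, 37969 and 38491 at 6 h, 45679.6, 48193 and 46566 at 12 h and 44873, 40501 and 41061 at 24 h. H47_KO started from 6403, 7093 and 6166 TPM and held 30566, 31006 and 30242 at 6 h, 46247, 45840.4 and 37279.8 at 12 h and 45129, 29112 and 24906 at 24 h. At 24 h the H47_KO libraries were widely spread, with replicate 1 at the level of the controls and the other two below. VP64_Ctrl rose from 8639, 8273 and 6901 TPM to 38645, 34557 and 34413 at 6 h, 47418, 45989 and 48804 at 12 h and 51066, 47848 and 44219 at 24 h. The libraries described as VP64_A held 13672, 8884 and 15591 TPM before treatment, 42893, 40499.5 and 34769.8 at 6 h, 50089, 51894 and 50744 at 12 h and 53271, 52460.2 and 49989 at 24 h. Untreated VP64_A libraries lay above every untreated VP64_Ctrl library, and separation over all genes was not counted.

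In edgeR's quasi-likelihood test, which is two-sided and used for all comparisons here with Benjamini-Hochberg adjustment over all genes tested, MT2A was higher than at 0 h at each time in all 4 groups of cells. Its log2 change in normalized CPM lay between 1.86 (SE 0.28, adjusted p = 6.8e-06) in VP64_A at 6 h and 3.05 (SE 0.30, adjusted p = 1.08e-09) in VP64_Ctrl at 12 h, that is 3.64-fold to 8.28-fold. Between 24 h and 6 h MT2A was called in no group, and its direction there depended on the processing. In VP64_Ctrl the log2 change was -0.03 (SE 0.27, adjusted p = 0.947 in edgeR), but MT2A was called higher at 24 h with limma on log2(TPM + 1) (0.41, adjusted p = 0.0216) or log2(TPM + 0.1) (adjusted p = 0.0242) and with abundance-dependent offsets in edgeR (0.50, adjusted p = 0.0401). In VP64_A limma on log2(TPM + 1) also called it higher (0.40, adjusted p = 0.0494). Without H47_KO replicate 1 at 24 h it was lower at 24 h in H47_KO (-1.01, adjusted p = 0.0254 in edgeR). All 7 metallothioneins together made up 0.668% to 5.71% of all TPM in a library, and MT2A alone took 89.6% to 96.6% of that sum. On counts, which are not divided by length, the family took 0.0929% to 0.76% of a library. Together they averaged 0.896% of TPM ± 0.00636 (SD, n = 3) in untreated H47_Ctrl and 4.96% ± 0.145 at 12 h. In H47_KO the same means were 0.701% ± 0.0416 and 4.54% ± 0.487, in VP64_Ctrl 0.848% ± 0.0863 and 5.04% ± 0.156, and in VP64_A 1.32% ± 0.358 and 5.37% ± 0.0603. In bulk RNA, fewer cells that express a gene and less RNA per cell cannot be told apart.

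**Figure D1:**
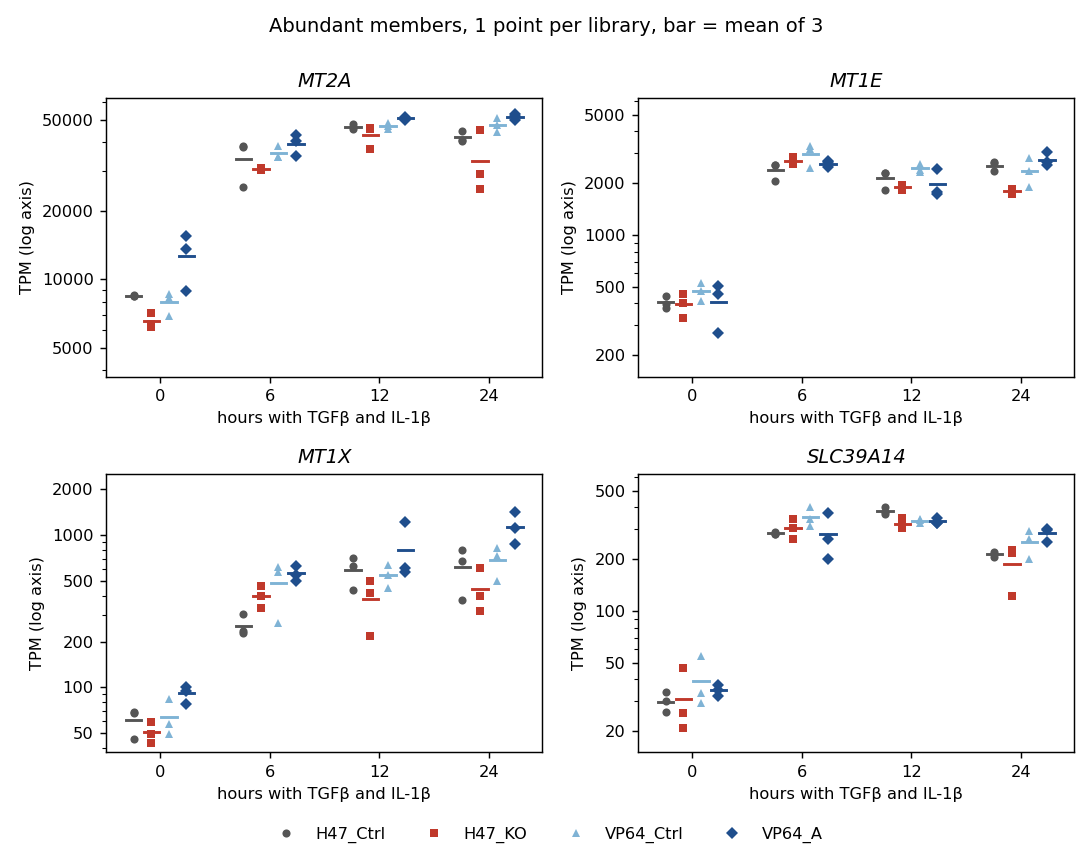
TPM of MT2A, MT1E, MT1X and SLC39A14 (log axis) against hours with TGFβ and IL-1β, 1 point per library and a bar at the mean of 3, in H47_Ctrl, H47_KO, VP64_Ctrl and VP64_A. Every treated library lies above every untreated library for each of the 4 genes, and SLC39A14 is highest at 6 or 12 h. How many of all genes separate in this way was not counted.

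MT1E was the leading MT1 gene, with 65.4% to 90.6% of the TPM of all MT1 members, and it rose early. It lay at 268, 427 and 525 TPM (lowest, median and highest of 12) without cytokines, 2057, 2611 and 3304 at 6 h, 1722, 2130 and 2599 at 12 h and 1734, 2451 and 3045 at 24 h. Untreated and treated libraries did not overlap. In edgeR its log2 change from 0 h lay between 2.03 (SE 0.23, adjusted p = 4.12e-08) in H47_KO at 24 h and 3.40 (SE 0.27, adjusted p = 1.11e-11) in VP64_Ctrl at 6 h. From 6 h to 24 h MT1E fell in H47_KO by 1.15 on the log2 scale (SE 0.22, adjusted p = 0.000228), from 2579, 2829 and 2652 TPM to 1734, 1848 and 1796. In VP64_Ctrl it fell by 0.78 (SE 0.25, adjusted p = 0.026 in edgeR), from 2447, 3304 and 3179 TPM to 2808, 2357 and 1900.1. Those VP64_Ctrl libraries overlapped in TPM but not in normalized CPM, and separation over all genes was not counted. The call was lost with limma on log2(TPM + 1) (adjusted p = 0.167), on log2(TPM + 0.1) (0.176), with abundance-dependent offsets (0.0912), and without replicate 2 or 3 at 6 h (adjusted p = 0.0982 and 0.0959) or replicate 2 or 3 at 24 h (0.0724 and 0.13). In H47_Ctrl and VP64_A the change from 6 h to 24 h did not pass.

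MT1X, whose transcript shares the largest part of its sequence with other genes, stood at 43, 64 and 101 TPM (lowest, median and highest of 12) before treatment. It reached 227, 430 and 629 TPM at 6 h, 219, 562 and 1211 at 12 h and 317, 703 and 1416 at 24 h, again with no overlap between untreated and treated libraries. In edgeR the log2 change from 0 h lay between 2.17 (SE 0.28, adjusted p = 4.7e-07) in H47_Ctrl at 6 h and 3.76 (SE 0.35, adjusted p = 4.14e-10) in VP64_Ctrl at 24 h. H47_Ctrl libraries went on rising, from 304, 233 and 227 TPM at 6 h to 376, 791 and 676 at 24 h, a log2 change of 1.23 (SE 0.24, adjusted p = 0.000474). VP64_A libraries rose from 501, 545 and 629 TPM to 1103, 1416 and 871 over the same interval, by 0.94 (SE 0.30, adjusted p = 0.0318 in edgeR). That VP64_A call was lost under DESeq2 (adjusted p = 0.0889), without VP64_A replicate 1, 2 or 3 at 6 h (0.141, 0.0699 and 0.0578) and without replicate 1 or 2 at 24 h (0.0695 and 0.137).

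MT1M was low at the start and stood highest at 24 h. It held 0.961, 7.14 and 13.2 TPM (lowest, median and highest of 12) untreated, 12.3, 27 and 60.9 at 6 h, 15, 38.3 and 58.7 at 12 h and 62.5, 112 and 163 at 24 h. Behind these levels stand 1.01 to 16 estimated counts per untreated library, with at least 10 in 5 of the 12, and 36 to 147 at 24 h. MT1M therefore passed the filter on low counts mainly through treated libraries, so a difference from 0 h was partly built in. Its changes from 0 h are given as a description, without p-values. In edgeR the log2 change from 0 h went from 1.49 (SE 0.38) in H47_Ctrl at 6 h to 4.71 (SE 0.55) in VP64_A at 24 h, where the lowest untreated library held a single count. Between 6 h and 24 h MT1M rose by 2.03 (SE 0.32, adjusted p = 1.88e-05) in H47_Ctrl, from 56.1, 21.6 and 26.1 TPM to 99.5, 163 and 146. In VP64_A it rose by 2.54 (SE 0.48, adjusted p = 0.000343 in edgeR), from 14.9, 19.2 and 27.9 TPM to 113, 156 and 111. No 24 h library overlapped a 6 h library in either group, but how many of all genes separate likewise was not counted. In H47_KO the same change had an adjusted p of 0.0867 in edgeR, and passed without replicate 2 at 6 h (1.18, adjusted p = 0.0246) and with limma on log2(TPM + 1) (1.41, adjusted p = 0.00317) or log2(TPM + 0.1) (1.44, adjusted p = 0.00452). In VP64_Ctrl it passed with limma on log2(TPM + 1) (1.41, adjusted p = 0.0359) and not in edgeR (0.2). In VP64_A the log2 change from 0 h to 6 h was 1.71 without VP64_A replicate 2 at 0 h, and 1.95 without replicate 3 at 6 h.

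MT1G, MT1A and MT1F were at or near the limit of detection. MT1G held 0 to 3.21 counts per untreated library, 1 to 13 at 6 h, 1 to 12 at 12 h and 3 to 14.4 at 24 h, and since the untreated libraries stand at about the floor of 3 counts no fold is given. It passed the filter on low counts through treated libraries alone, so a difference from 0 h was built in, and its tests against 0 h are not given as results.
MT1A reached at most 10.6 counts in any library and did not pass the filter in either arm with all libraries in the fit. In some fits with a single library left out it passed, again through treated libraries, and its tests are not given. MT1F had a count in 5 of the 48 libraries, at most 2, and a count of 0 allows up to 3 counts in a library. Neither has a fold here. Of the metallothioneins outside the 9 genes, MT1L reached 6 counts, MT1JP 11.5 and MT1B, MT1H, MT1HL1 and MT1DP 1 count each, while MT3, the brain metallothionein, and MT4, that of stratified epithelium, had 0 counts in all 48 libraries. None of the 8 listed passed the filter.

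**Figure D2:**
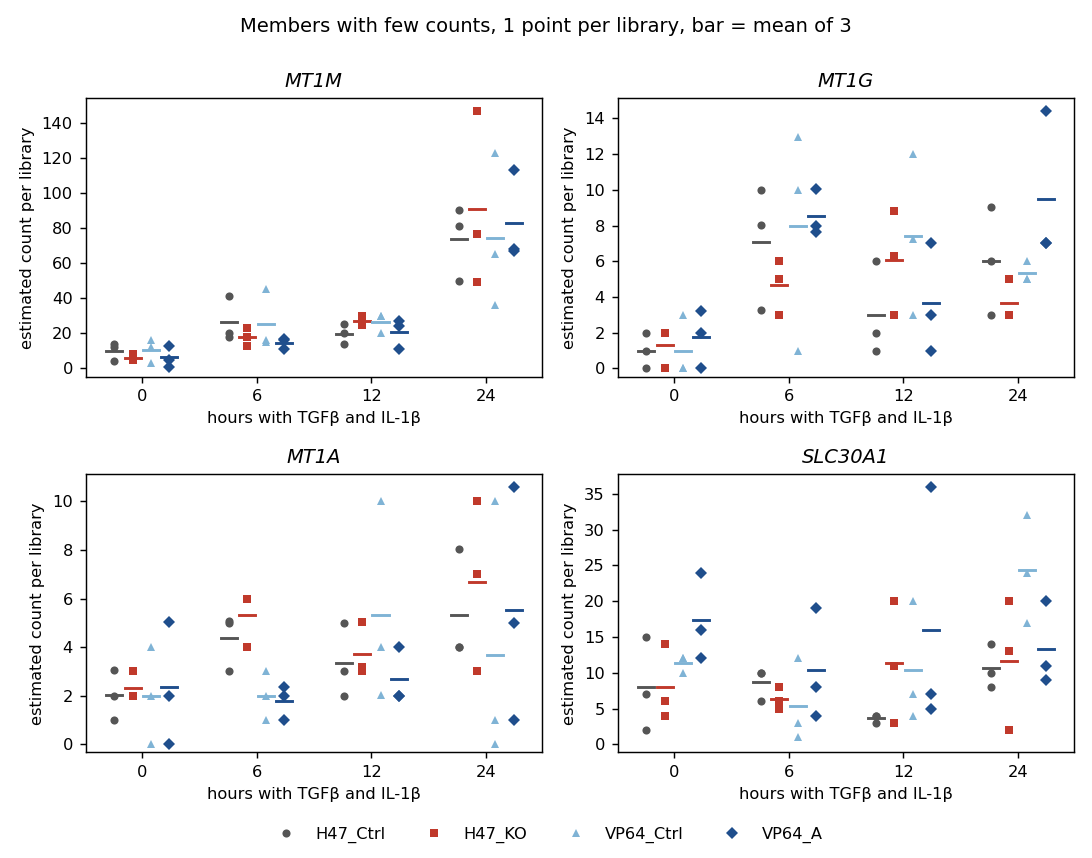
Estimated counts per library of MT1M, MT1G, MT1A and SLC30A1 (linear axes, scaled for each gene) against hours with TGFβ and IL-1β, 1 point per library and a bar at the mean of 3. MT1M reaches 36 to 147 counts at 24 h, while MT1G stays at or below 14.4, MT1A at or below 10.6 and SLC30A1 at or below 36.

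SLC39A14, the ZIP14 importer, rose in all 4 groups of cells and had its highest group mean at 6 or 12 h. Over 12 libraries per time it lay at 20.7, 32.6 and 54.5 TPM (lowest, median and highest) untreated, 201, 297 and 404 at 6 h, 304, 341 and 401 at 12 h and 123, 223 and 300 at 24 h. The H47_Ctrl libraries held 29.8, 33.6 and 25.8 TPM, then 289, 282 and 279, then 401, 375 and 365, then 206, 215 and 219.8. H47_KO held 20.7, 25.5 and 46.4 TPM, then 344, 305 and 260.4, then 312, 347 and 304, then 227, 123 and 216. All treated libraries lay above all untreated libraries, and in H47_Ctrl the 3 values at each time were closer to each other than to those of any other time.
VP64_Ctrl held 29.2, 33.1 and 54.5 TPM of SLC39A14, then 404, 311 and 343, then 345, 338 and 325, then 263, 293 and 200.3. VP64_A held 34.7, 37.2 and 32.1 TPM, then 373, 261 and 201, then 327, 327 and 345, then 297, 251 and 299.8. In edgeR the log2 change from 0 h lay between 2.59 (SE 0.25, adjusted p = 1.48e-09) in H47_KO at 24 h and 4.26 (SE 0.26, adjusted p = 1.66e-14) in VP64_Ctrl at 6 h, or 6.02-fold to 19.2-fold. From 6 h to 24 h SLC39A14 fell by 1.29 (SE 0.24, adjusted p = 0.000133) in H47_KO and by 0.92 (SE 0.23, adjusted p = 0.00483) in VP64_Ctrl. The VP64_Ctrl fall was not called by limma on log2(TPM + 1) (adjusted p = 0.0815), on log2(TPM + 0.1) (0.0884) or with abundance-dependent offsets (0.0502). In H47_Ctrl and VP64_A the change from 6 h to 24 h did not pass, and whether the groups differ in this fall was not tested beyond the comparison with 0 h below.

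SLC30A1, the ZnT1 exporter and the only exporter among the 9 genes, stayed scarce. It held 0.323 to 4.58 TPM and 1 to 36 counts per library over all 48 libraries. In VP64_Ctrl it had 10, 12 and 12 counts at 0 h, 12, 3 and 1 at 6 h, 7, 20 and 4 at 12 h and 24, 17 and 32 at 24 h, and only here was it called in edgeR, at 24 h over 0 h (log2 change 1.88, SE 0.50, adjusted p = 0.00798). The same libraries gave 1.84 for 24 h over 6 h (SE 0.56, adjusted p = 0.02). The first call was lost with limma on log2(TPM + 1) (adjusted p = 0.0589) and on log2(TPM + 0.1) (0.102), and also without the 5 libraries with high scaling factors described below (0.0842). The second was lost without VP64_Ctrl replicate 2 or 3 at 6 h (0.0946 and 0.06) or replicate 2 at 24 h (0.0607). H47_Ctrl libraries held 15, 7 and 2 counts untreated and 14, 10 and 8 at 24 h, which overlap. With so few counts, smaller changes were not detectable at this depth.

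**Figure D3:**
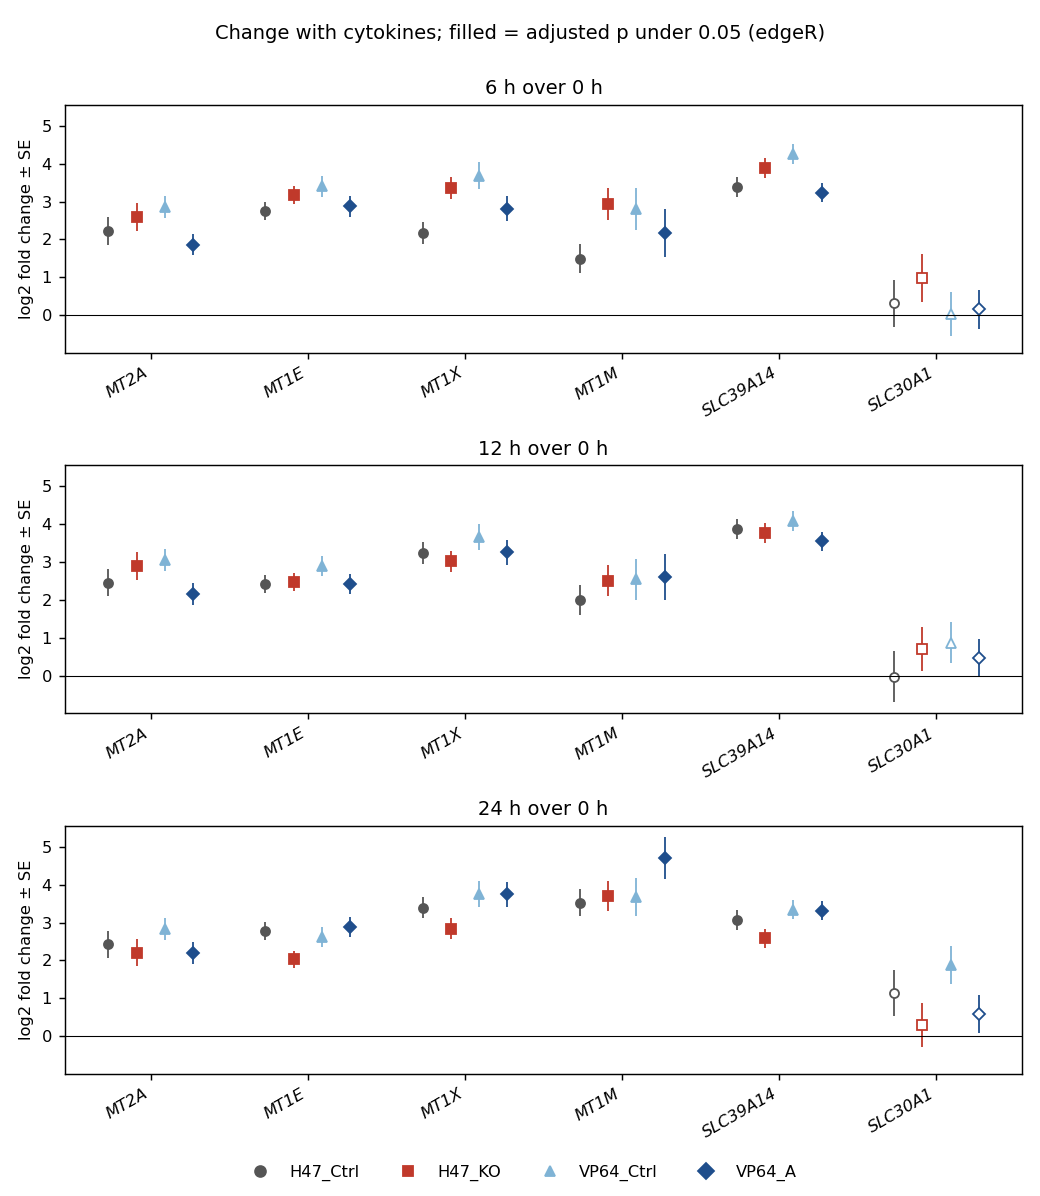
Log2 change (point) ± SE (bar) of 6 members at 6, 12 and 24 h over 0 h, in a panel for each time with a marker for each group of cells, filled where the adjusted p in edgeR is under 0.05. MT2A, MT1E, MT1X, MT1M and SLC39A14 are filled and above 0 at every time in all 4 groups, SLC30A1 only in VP64_Ctrl at 24 h. MT1M passed the filter on low counts mainly through treated libraries, so its filled points were partly built in.

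Counted over comparisons, 4 members (MT2A, MT1E, MT1X and SLC39A14) had at least 10 counts in every untreated library, so their tests do not depend on the filter. All 4 were called higher at each time in H47_Ctrl, when 15.9%, 19.6% and 10.3% of all genes were called at 6, 12 and 24 h. The same 4 of 4 were called in VP64_Ctrl (28.8%, 26.8% and 16% of all genes), in H47_KO (23.9%, 27.4% and 15.8%) and in VP64_A (17.4%, 19.7% and 13.6%). Their median log2 changes lay between 2.40 and 3.54 over these 12 comparisons, and medians of all genes between -0.10 and 0.02. For 24 h over 6 h, 1 of the 4 was called in H47_Ctrl, 2 in H47_KO, 2 in VP64_Ctrl and 1 in VP64_A, with 14.6%, 24.2%, 18.4% and 12.5% of all genes. These time courses share the untreated libraries of their group, so calls at 6, 12 and 24 h are not independent.

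GLIS3 knockout was compared with its control to ask whether the members depend on GLIS3. Of the 7 members that passed the filter (all but MT1F and MT1A), none was called at 0, 6, 12 or 24 h in edgeR, where 0.301%, 0.319%, 0.0821% and 0.21% of all genes were called. At an unadjusted p under 0.05 the counts were 0, 1, 0 and 5 members. Of the 10962 genes tested, 1253, 1228, 842 and 1096 passed that threshold at the same times. DESeq2 called 2 of the 28 pairs of member and time, and 360 pairs over all genes. The member past the unadjusted threshold at 6 h was MT1X, at 60, 81.8 and 47.5 normalized CPM in H47_KO and 27.7, 37.2 and 32.9 in H47_Ctrl, with a log2 difference of 0.94 (SE 0.25, adjusted p = 0.0893 in edgeR). The groups did not overlap, but how many of all genes separate like this was not counted, so the separation is only a description. DESeq2 gave MT1X an adjusted p of 0.017 and a log2 difference of 0.97 there.

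At 24 h MT2A, MT1E, MT1X and SLC39A14 had negative log2 differences between H47_KO and H47_Ctrl, with a median of -0.68, while the median over all genes was 0.02. MT1M and SLC30A1 stood at -0.73 (SE 0.29) and -0.97 (SE 0.59). MT1E held 357, 243 and 233 normalized CPM in H47_KO and 474, 501 and 488 in H47_Ctrl. These values do not overlap, but the share of all genes that separate in this comparison was not counted. The log2 difference of MT1E was -0.81 (SE 0.22, adjusted p = 0.169 in edgeR and 0.049 in DESeq2). MT1X differed by -0.81 (SE 0.24, adjusted p = 0.222), MT2A by -0.55 (SE 0.34, adjusted p = 0.605) and SLC39A14 by -0.51 (SE 0.24, adjusted p = 0.475), all in edgeR. These members were singled out after their values were seen. For SLC39A14 the libraries held 739.7, 321 and 433 normalized CPM in H47_KO and 689, 780.0 and 666 in H47_Ctrl, so replicate 1 of H47_KO lay among the controls. Without that replicate edgeR called MT1E (log2 difference -1.04, adjusted p = 0.0316) and SLC39A14 (-0.92, adjusted p = 0.0446). Without the 5 libraries with high scaling factors described below, which include H47_KO replicate 3, the differences were smaller, at -0.30 (adjusted p = 0.808) for MT2A, -0.66 (0.477) for MT1X, -0.70 (0.113) for MT1E and -0.42 (0.634) for SLC39A14 in edgeR. At 0, 6 and 12 h the median differences of these 4 members were -0.16, 0.42 and -0.07. With no filter on low counts edgeR called MT1X at 6 h (adjusted p = 0.000176) and MT1X and MT1E at 24 h (0.00263 and 0.0255), and with the 6 libraries compared alone it called MT1X at 6 h (0.00859).

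In the CRISPRa arm MT2A was the only member called, at 0 h and there higher in the libraries described as VP64_A. They held 2036, 1078 and 1745 normalized CPM of MT2A, and VP64_Ctrl held 1007, 1035 and 480.5. There was no overlap but little distance between the nearest libraries, and non-overlap among all genes was not counted. The log2 difference was 0.95 (SE 0.28, adjusted p = 0.0264 in edgeR), or 1.93-fold. It was lost without VP64_A replicate 1 (0.75, adjusted p = 0.157) or replicate 3 (0.88, adjusted p = 0.0981), and without VP64_Ctrl replicate 3 (0.66, adjusted p = 0.141). Only the 6 libraries compared gave an adjusted p of 0.113, and abundance-dependent offsets gave 0.35 (adjusted p = 0.222). Of all genes, 9.41% were called at 0 h, and 3.76%, 4.31% and 4.13% at 6, 12 and 24 h, when none of the 7 members was called in edgeR. At an unadjusted p under 0.05 the counts were 3, 1, 0 and 2 members. Of the 10980 genes tested, 2518, 1487, 1619 and 1641 passed that threshold at the same times. DESeq2 called 1 of the 28 pairs of member and time, and 2642 pairs over all genes.

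MT1X was higher in VP64_A in the average over the 4 times, by a log2 difference of 0.58 (SE 0.16, adjusted p = 0.00812 in edgeR), the 1 member of 7 called there, when 18.4% of all genes were. At 0 h VP64_A held 14.1, 8.93 and 9.88 normalized CPM of MT1X, against 5.46, 6.71 and 5.54 in VP64_Ctrl. At 24 h the values were 147, 183 and 121 against 106, 80.7 and 54.8. In normalized CPM the groups overlapped at neither of these times, but how many of all genes separate likewise was not counted. In TPM they did overlap at 0 h, at 100.7, 78.5 and 95.0 in VP64_A against 49.9, 57.2 and 84.5 in VP64_Ctrl. The 24 h difference of 0.90 (SE 0.29) had an adjusted p of 0.0881 in edgeR, and passed without VP64_A replicate 1 at 12 h (0.0389), VP64_Ctrl replicate 1 at 6 h (0.0455) or VP64_Ctrl replicate 1 at 24 h (0.049), with no filter (3.45e-05) and with the 6 libraries compared alone (0.0222). The last 2 settings also called MT1X at 0 h (0.000725 and 0.0436), and the last called SLC39A14 at 0 h (0.0464). In normalized CPM of MT1X, VP64_A and VP64_Ctrl overlapped at 6 h (66.1, 83.5 and 85.1 against 39.8, 99.9 and 95) and at 12 h (175, 62.5 and 88.1 against 59.6, 65.3 and 103). Averaged over times, no member was called between H47_KO and H47_Ctrl in edgeR (1 at an unadjusted p under 0.05), with 3.07% of all genes called. At that unadjusted threshold 1771 of 10962 genes passed. DESeq2 called 2 members over both averages, MT1X and MT2A in VP64_A (adjusted p of MT2A 0.0425), beside 2514 calls over all genes.

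**Figure D4:**
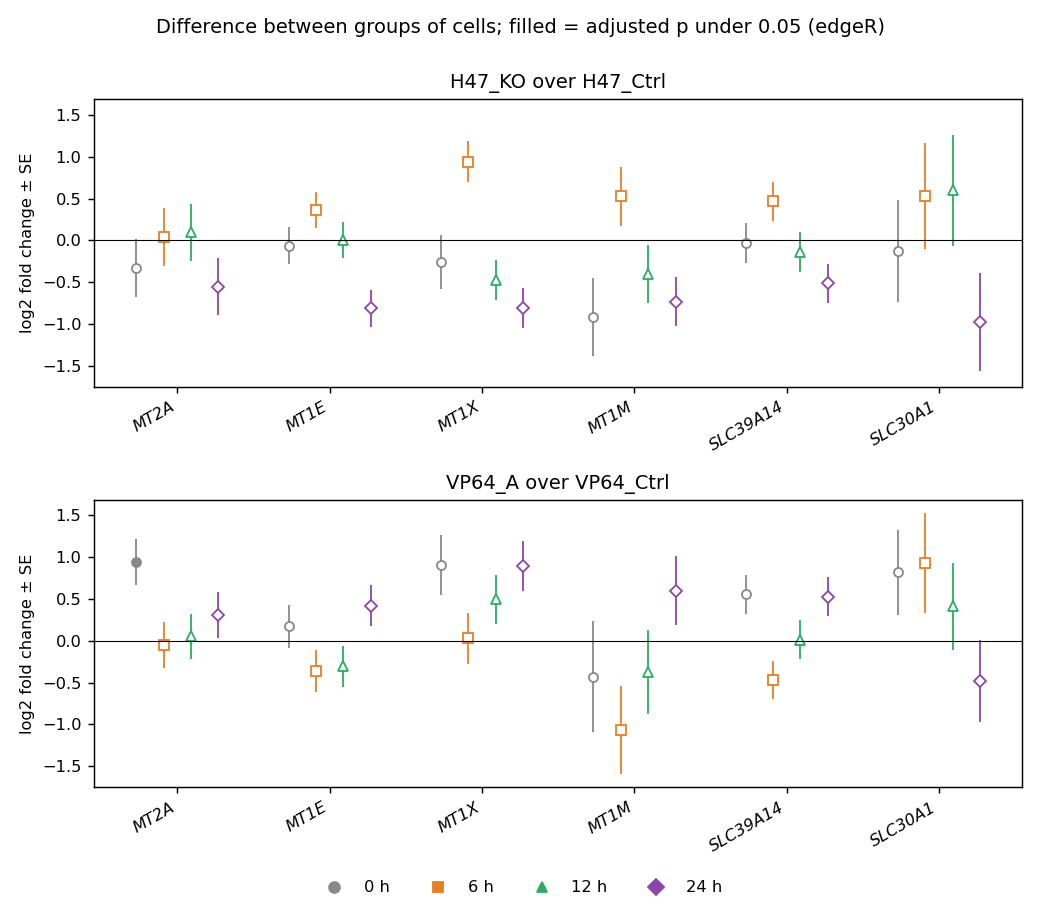
Log2 difference (point) ± SE (bar) of 6 members between H47_KO and H47_Ctrl (upper panel) and between VP64_A and VP64_Ctrl (lower panel) at 0, 6, 12 and 24 h, filled where the adjusted p in edgeR is under 0.05. The filled point is MT2A at 0 h in the lower panel, at 0.95, and all 6 members lie below 0 at 24 h in the upper panel.

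Whether the response to cytokines differed between the groups of an arm was tested as the difference at 6, 12 or 24 h less that at 0 h. No member was called in these 6 comparisons in edgeR, with 0.00912%, 0% and 0% of all genes called for H47_KO and 0.0911%, 0.264% and 0.209% for VP64_A. At an unadjusted p under 0.05 there were 2, 0 and 1 members for H47_KO and 2, 1 and 0 for VP64_A. Over all genes 869, 709 and 616 of 10962 passed that threshold for H47_KO, and 1035, 1193 and 781 of 10980 for VP64_A. DESeq2 called 1 of 42 pairs, SLC39A14 at 6 h in the CRISPRa arm (-1.06, adjusted p = 0.046), which in edgeR stood at -1.03 (SE 0.33, adjusted p = 0.315). The control groups of the arms, which carry different Cas proteins, were compared over all 48 libraries, where 8 members were tested, and MT1X differed at 6 h. VP64_Ctrl exceeded H47_Ctrl by 1.23 on the log2 scale (SE 0.31, adjusted p = 0.0104 in edgeR), when 4.06% of all genes were called. No member was called at 0, 12 or 24 h (9.58%, 4.34% and 5.87% of all genes), where edgeR also had 0 members at an unadjusted p under 0.05. Over all genes 2655, 1692 and 1964 of 11422 passed that unadjusted threshold there. DESeq2 called 1 member pair in all, and 2904 pairs over all genes. The MT1X call was lost with limma on log2(TPM + 1) (adjusted p = 0.111) and without H47_Ctrl replicate 1 (0.09), VP64_Ctrl replicate 2 (0.143) or VP64_Ctrl replicate 3 (0.08).

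Library composition moved with several of these values. TMM factors, which rescale each library for composition, lay between 0.681 and 1.21 in 43 libraries and above 1.3 in the other 5, namely H47_Ctrl 6 h replicate 1, H47_KO 0 h replicate 3, H47_KO 24 h replicate 3, and VP64_Ctrl 0 h replicates 1 and 3. In those 5 libraries the 20 most abundant genes took 16.4% to 25% of counts, against 25.5% to 34.1% in the others. MT2A was at 2470 normalized CPM in the H47_Ctrl 6 h library concerned and at 6459 and 5965 in the other two, and at 480.5 in VP64_Ctrl 0 h replicate 3. In H47_KO at 24 h, MT2A was at 2351 in replicate 3, but at 2728 in replicate 2, whose factor was 1.20, and at 6623 in replicate 1.
Without the 5 libraries the MT2A difference at 0 h in the CRISPRa arm was 0.65 (SE 0.33, adjusted p = 0.487), and VP64_Ctrl then kept a single library at 0 h, assumed to vary like the other groups. The MT1X average was 0.53 (SE 0.19, adjusted p = 0.056), and MT1X in VP64_Ctrl over H47_Ctrl at 6 h was 1.11 (SE 0.36, adjusted p = 0.0857). The length that Salmon used for MT2A, read from the ratio of count to TPM, was 3.55% to 5.64% of that of SLC39A14, and normalized CPM carries the TMM factors, which TPM does not, so the units differ in both respects. VP64_Ctrl 0 h replicate 3 had the longest such length, at 5.64%, and also the highest factor. With these lengths as offsets the MT2A difference at 0 h stood at 1.02 (SE 0.28, adjusted p = 0.0184 in edgeR).

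**Figure D5:**
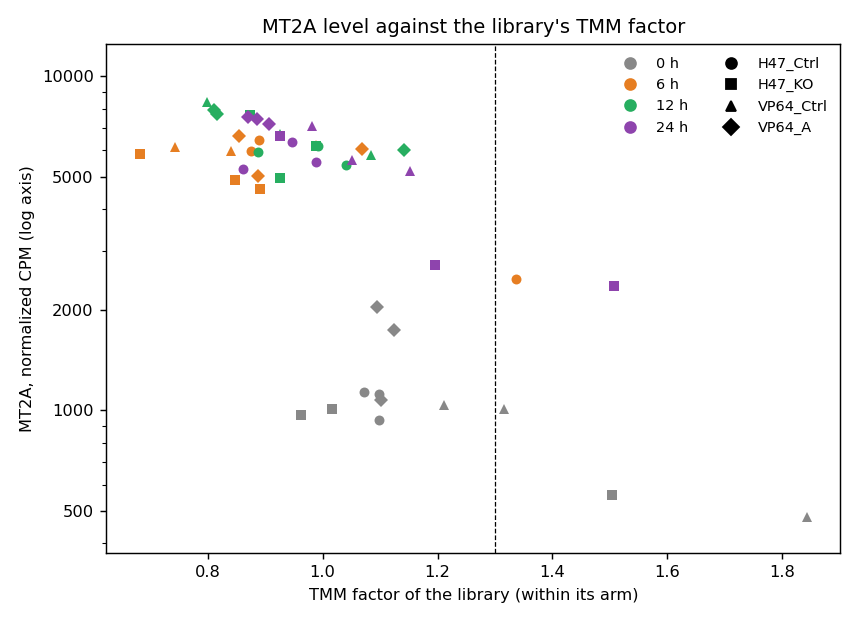
Normalized CPM of MT2A (log axis) against the TMM factor of each library, 1 point per library, with group of cells by shape, time by colour and a dashed line at 1.3. Of the 5 libraries right of 1.3, 4 hold the lowest value of their own condition, with MT2A at 480.5 normalized CPM at the factor of 1.84, and VP64_Ctrl 0 h replicate 1 does not.

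Across libraries MT2A, MT1E, MT1X and SLC39A14 varied closely together, and MT1M and MT1G less closely. Over the 24 libraries of an arm, Pearson's r of log2 normalized CPM between MT2A and SLC39A14 was 0.952 for CRISPRko libraries and 0.956 for CRISPRa libraries, and between MT2A and MT1E 0.951 and 0.945. MT1M and MT1G had r between 0.670 and 0.881 against MT2A, MT1E, MT1X and SLC39A14, and 0.642 and 0.683 against each other. SLC30A1 stood apart, with r between 0.0935 and 0.534 against the 6 other members. From 6 h to 24 h some members rose and others fell, as given above. Among 10691 genes tested in both arms, those outside the list most like MT2A by the lower of both values were BTG3 (0.944 and 0.959), SOD2 (0.944 and 0.962), OPTN, CTGF and MSC. SLC39A14 was most like IL8 (0.976 and 0.974), IL6 (0.973 and 0.977), INHBA, SOD2 and IER3. SOD2 is the mitochondrial superoxide dismutase, IL8 and IL6 are inflammatory cytokines, and INHBA encodes an activin subunit. All points share the same libraries, composition and step from untreated to treated cells, so these values describe that step and carry no test.

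Most of the other genes of the zinc system were not called in the control time courses. Of a list of 23 genes, further zinc transporters and the sensor MTF1, 15 passed the filter among CRISPRko libraries and 16 among CRISPRa libraries. H47_Ctrl had 3, 3 and 2 of 15 higher than untreated at 6, 12 and 24 h and 0 lower. Of all genes 10.3%, 11.3% and 6.53% were called higher there, and 15.9%, 19.6% and 10.3% in either direction. VP64_Ctrl had 3, 4 and 2 of 16 higher and 1, 2 and 1 lower. Of all genes 16.2%, 15.3% and 10.4% were called higher there, and 28.8%, 26.8% and 16% in either direction. Median log2 changes of the list lay at 0.02, 0.08 and 0.27 in H47_Ctrl, when those of the 4 abundant members lay at 2.49, 2.85 and 2.92. SLC39A7, or ZIP7, which releases zinc from the endoplasmic reticulum, rose by 0.46 (SE 0.14), 0.69 (SE 0.14) and 0.55 (SE 0.14) in VP64_Ctrl at 6, 12 and 24 h, and SLC39A6 by 1.00 (SE 0.18), 0.92 (SE 0.17) and 0.74 (SE 0.17). SLC30A7, or ZnT7, which loads zinc into the Golgi, rose by 1.03 (SE 0.19) at 6 h and 1.47 (SE 0.20) at 12 h in H47_Ctrl. MTF1 rose at 6 h in H47_Ctrl by 0.77 (SE 0.25, adjusted p = 0.0278 in edgeR) and in VP64_A by 0.78 (SE 0.25, adjusted p = 0.026), and was not called in the other comparisons. SLC30A7 and MTF1 were named after their values were seen.
No gene of the list differed between H47_KO and H47_Ctrl at any time in edgeR, with 3, 2, 0 and 0 at an unadjusted p under 0.05. Over all genes 1253, 1228, 842 and 1096 of 10962 passed that unadjusted threshold. In VP64_A, SLC39A6 (0.53, SE 0.17, adjusted p = 0.0465) and SLC39A7 (0.52, SE 0.14, adjusted p = 0.0135) were higher at 0 h, and SLC39A7 (0.32, SE 0.07) and SLC39A10 (0.46, SE 0.16) in the average over times.

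Of 20 genes of copper and iron handling 17 were tested, and 2, 4 and 3 were higher in H47_Ctrl at 6, 12 and 24 h, with 0 lower. Of all genes 10.3%, 11.3% and 6.53% were called higher there, and the same 15.9%, 19.6% and 10.3% in either direction. SLC11A2, the divalent metal transporter DMT1, rose in all 12 comparisons with 0 h, by 1.98 (SE 0.15, adjusted p = 1.51e-12 in edgeR) in H47_Ctrl at 12 h. SLC25A37, the mitochondrial iron importer, rose by 2.77 (SE 0.19) at 6 h in H47_Ctrl and from 6 h to 24 h fell by 2.19 (SE 0.19). FTH1, the ferritin heavy chain, rose by 1.24 (SE 0.35) at 24 h. In the average over times, FTH1 was lower in VP64_A, by -0.55 (SE 0.13), and so was ACO1, an iron-sensing aconitase, by -0.26 (SE 0.08). TFRC, the transferrin receptor, was higher there by 0.56 (SE 0.09), SLC31A1, the copper importer CTR1, by 0.49 (SE 0.08) and SOD1, the copper-zinc superoxide dismutase, by 0.42 (SE 0.08). These are 5 of 17 genes, when 18.4% of all genes were called. Among 10 genes of metal, oxidant and heat stress, all tested, HMOX1, which degrades heme, rose in H47_Ctrl by 1.79 (SE 0.28) at 6 h and 2.35 (SE 0.28) at 12 h. In this list H47_Ctrl had 1, 1 and 2 genes higher and 1, 2 and 2 lower at 6, 12 and 24 h, again beside 15.9%, 19.6% and 10.3% of all genes. At 6 h 5 were higher and 1 lower in both H47_KO and VP64_Ctrl (23.9% and 28.8% of all genes called). VP64_A then had 2 higher and 0 lower (17.4%). From 6 h to 24 h 5, 6, 5 and 3 fell and 1, 0, 0 and 1 rose in H47_Ctrl, H47_KO, VP64_Ctrl and VP64_A. Of all genes 14.6%, 24.2%, 18.4% and 12.5% were called there. SLC7A11, the cystine importer, fell by 2.43 (SE 0.23) at 24 h in H47_Ctrl. Between groups it was lower in VP64_A at every time, from -2.77 (SE 0.27) at 0 h to -1.98 (SE 0.36) at 24 h, and TXNRD1, a thioredoxin reductase, was lower in the average by -1.10 (SE 0.10, adjusted p = 2.83e-10 in edgeR). HMOX1 and GCLM, a subunit of the enzyme that starts glutathione synthesis, were higher in that average by 0.35 (SE 0.11) and 0.54 (SE 0.14). HSPA1A, an inducible heat shock protein, rose in VP64_Ctrl by 0.66 (SE 0.18), 0.49 (SE 0.18) and 1.14 (SE 0.18) at 6, 12 and 24 h. It was the gene of these lists called between H47_KO and H47_Ctrl in the average over times (0.35, SE 0.09, adjusted p = 0.0254 in edgeR), when 3.07% of all genes were called.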

How the data were processed

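RNA was extracted with Trizol, and libraries were prepared with Nextera XT for a NextSeq. Trim Galore, SortMeRNA, STAR (GRCh38) and Salmon were the tools the authors ran, in versions and with an annotation release not given in the sources used here. The authors deposited estimated counts from Salmon, which were not normalized between libraries, of which 6.38% were not whole and which were rounded for the tests. The authors also deposited TPM from Salmon, scaled for transcript length and library. Library totals were 2321990 to 10661004 counts, and a library's floor was 3 counts, which covers counting error only. No 2 replicates held the same values: over 48 pairs the chi-square per degree of freedom was at least 3.80.

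Estimated counts were tested with edgeR 4.0.16 (R 4.3.3), by its quasi-likelihood F test after TMM scaling. Low genes were removed with filterByExpr at 10 counts per library and 15 in total. Each arm was fitted with its 24 libraries in 8 groups (10962 genes for CRISPRko, 10980 for CRISPRa), and VP64_Ctrl against H47_Ctrl with all 48 libraries in 16 groups (11422 genes). The threshold was an adjusted p of 0.05 (Benjamini-Hochberg, all genes of the fit). All 9 members are named. Those called get full statistics, those under 10 counts in every library get counts, and list genes named with values were taken from those called in the average over times or in at least 3 times of a comparison, at most 5 per list and arm. MT1G's tests against 0 h, and MT1M's p-values against 0 h, were left out after their counts were seen. The members and lists were chosen with earlier results of these data known.

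Alternatives were no filter, DESeq2 1.42.0, scaling by its size factors, a fit with the compared libraries alone, a block for replicate number, limma 3.58.1 with pseudocounts of 1 and 0.1 added to TPM before log2, abundance-dependent offsets, and each library left out. Length offsets, and a fit without the libraries whose TMM factor was above 1.3, were chosen after seeing the data. In counts simulated for H47_KO over H47_Ctrl at 24 h (10962 genes), the test recovered 53% of the genes given a log2 change of 1 and 85% of those given 2, with 8% false calls.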

Additional observations from a re-analysis of the deposited data

How the results depend on the processing

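Over the 7 members tested, calls for 6, 12 and 24 h over 0 h were 36 of 42 in the controls (31 to 37 over the alternatives, 34 to 36 with a library left out). In H47_KO and VP64_A they were 34 of 42 (30 to 34, and 32 to 35), and over all genes 19.6% were called in both sets. These counts, and the 82 results below, include MT1G and MT1M, which passed the filter only or mainly through treated libraries. They therefore describe the processing and do not measure the response. For 24 h over 6 h there were 9 of 28 (8 to 11, and 7 to 10), beside 17.4% of all genes. None of the 82 called member results reversed direction under any alternative run, but MT2A in VP64_Ctrl at 24 h over 6 h, which was not called at -0.03, was called at 0.41 with limma at either pseudocount and at 0.50 with abundance-dependent offsets, and stood at 0.01 with length offsets. The cause was not tested. Between H47_KO and H47_Ctrl no member was called in edgeR, but 2 were with DESeq2, 3 without a filter, 1 with only the libraries compared, and 0 to 2 with a library left out. Between VP64_A and VP64_Ctrl the 1 call became 3 without a filter, 3 with only the libraries compared, 0 with abundance-dependent offsets, 0 without the high-factor libraries, and 0 to 2 with a library left out. Differences less those at 0 h had 0 calls, but 1 with DESeq2 and 1 without a filter. The averages over times had 1 call, 2 with DESeq2, 2 with limma at either pseudocount, 2 with length offsets, and 0 without the high-factor libraries (1 with any single library left out). VP64_Ctrl over H47_Ctrl had 1, and 0 with limma at either pseudocount, 0 without the high-factor libraries, and 0 to 1 with a library left out.

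Over all genes, the 100 calls between H47_KO and H47_Ctrl became 360 with DESeq2, 452 without a filter, 176 with only the libraries compared, 41 and 33 with limma on log2(TPM + 1) and log2(TPM + 0.1), 242 with abundance-dependent offsets, 260 without the high-factor libraries, and 58 to 215 with a library left out. The 63 calls of differences less those at 0 h became 196 with DESeq2, 464 without a filter, 35 with only the libraries compared, 38 with limma on log2(TPM + 0.1), 21 without the high-factor libraries, and 20 to 94 with a library left out. With a library left out, all-gene calls were 11281 to 13289 for controls over 0 h, 11246 to 13331 for H47_KO and VP64_A over 0 h, 6774 to 7891 for 24 h over 6 h, 1890 to 2535 for VP64_A, 2098 to 2444 for the averages and 2102 to 2684 for VP64_Ctrl over H47_Ctrl. The causes were not tested. Libraries with the same replicate number did not deviate together (correlations from -0.0531 to 0.140), so the numbers do not pair them. With a replicate block the member counts were 0, 1, 36, 34, 9, 0, 1 and 1 in the order of the comparisons listed in the text (H47_KO, VP64_A, controls over 0 h, perturbed over 0 h, 24 h over 6 h, differences less 0 h, averages, control arms), all 82 member calls held, and all-gene counts were 105, 2567, 13066, 13007, 7671, 86, 2431 and 2887. Only the libraries compared was not run for the averages, which already use every library of an arm. Depth limits MT1F, MT1A, MT1G and SLC30A1 most.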
